A study of Mus musculus with 29 samples.

Results

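Vsig2, Tmem246, Bcl2l14 and Pate14 were followed across the bladder libraries of this series. The 4 genes were selected on the size of their rise in luminal over basal tumors, the uroplakin genes left aside, and make up 4 of the 35199 genes in each table. RNA-seq libraries fall into 6 groups here. Sorted cells came from mice not given carcinogen, 4 controls labelled wild type and 5 mutants labelled K5VP16;Pparg+/-, taken 4 days after the last tamoxifen dose. In the mutants a tamoxifen-inducible Cre driven by Krt5, a basal cell gene, switches on a VP16;Pparg fusion from the Rosa26 locus, so that the activator is on in Krt5-expressing cells and the cells descended from them; the sorted controls carried the Cre with a Gfp reporter, and Gfp-positive cells were collected from both genotypes. Tumors came from mice given 5 months of BBN, a nitrosamine that causes bladder cancer, and were collected by laser capture. Per the study, tumor mice of both genotypes had tamoxifen delivered into the bladder after the first month of BBN. The mice for sorted cells had it by intraperitoneal injection. There were 3 basal tumors from mice labelled wild type (the study describes tumor controls that carried either the cassette without Cre or the Cre with the reporter) and, from K5VP16;Pparg+/- mice, 3 luminal tumors, 3 luminal domains labelled Top and 3 basal-like domains labelled Bottom. The titles place all tumors at 4 months, which the study counts from tamoxifen. Animals were 8 to 12 weeks old at tamoxifen per the study's methods, and the study describes capturing both domains from mixed lesions, but nothing in the labels says which libraries share one.

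Luminal cells of the bladder face the urine and are covered by plaques of uroplakin proteins, while basal cells lie on the basement membrane and carry keratins such as Krt5. Pparg is a nuclear receptor that drives luminal differentiation in urothelium, and it binds DNA together with a retinoid X receptor. The 4 genes have unrelated products. Vsig2 encodes a membrane protein of the immunoglobulin superfamily. Tmem246, now called Pgap4, encodes a Golgi enzyme that adds a sugar side chain to glycosylphosphatidylinositol (GPI) anchors, the lipids that hold many proteins on the cell surface. Bcl2l14 belongs to the Bcl2 family, whose members inhibit or promote cell death. Pate14 belongs to the Pate genes, which encode small disulfide-rich proteins of the Ly6 fold and are known mainly from the male reproductive tract.

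In GRCm38 coordinates, Vsig2 spans chr9:37539255-37544205 on the plus strand with up to 7 exons in a transcript. Pate14, named A630095E13Rik in the GENCODE annotation, lies on the same chromosome at chr9:36635754-36643376 on the minus strand. These 2 genes are 896 kb apart, with 14 protein-coding genes between them. Tmem246 spans chr4:49584506-49597876 on the minus strand with up to 2 exons, and Bcl2l14 spans chr6:134396318-134438736 on the plus strand with up to 7. Bcl2l14 overlaps 2 annotated non-coding genes on the opposite strand, and Pate14 overlaps 1 on its own strand. The library kit did not mark strand, so reads from overlapping genes cannot be told apart by strand.

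The RefSeq promoter table for GRCm38.p6 held start sites for 3 of the 4 genes, 5 starts in all, and none for Vsig2. The 250 bases before 1 start of each gene are shown because a nuclear receptor is switched on in these mice, and capitals mark exact matches to any of 8 short motifs, searched on both strands. They are printed 5′ to 3′ on the strand of the gene, at chr4:49597877-49598126 (minus) for Tmem246, chr6:134414178-134414427 (plus) for Bcl2l14 and chr9:36638603-36638852 (minus) for Pate14.
Tmem246: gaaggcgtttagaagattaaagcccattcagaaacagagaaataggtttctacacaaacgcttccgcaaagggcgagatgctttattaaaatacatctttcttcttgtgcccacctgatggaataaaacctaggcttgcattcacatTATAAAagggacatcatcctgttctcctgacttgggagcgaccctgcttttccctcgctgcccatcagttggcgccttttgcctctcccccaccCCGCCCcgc
Bcl2l14: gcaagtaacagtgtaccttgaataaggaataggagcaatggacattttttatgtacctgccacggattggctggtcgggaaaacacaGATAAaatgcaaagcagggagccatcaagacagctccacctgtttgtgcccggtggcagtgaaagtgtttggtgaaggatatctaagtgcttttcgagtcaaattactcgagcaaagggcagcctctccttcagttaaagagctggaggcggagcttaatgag
Pate14: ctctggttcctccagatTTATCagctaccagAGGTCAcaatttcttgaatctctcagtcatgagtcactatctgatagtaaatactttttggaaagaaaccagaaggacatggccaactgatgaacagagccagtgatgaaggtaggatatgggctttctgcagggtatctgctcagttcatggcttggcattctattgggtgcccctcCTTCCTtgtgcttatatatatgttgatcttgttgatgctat

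Pate14 was the only one of these 5 promoters with the nuclear receptor core motif AGGTCA, whose first base lay 219 bases before the start. The same 6 letters occur on either strand in 14% of 32851 promoters of this length. The Pate14 promoter also held the GATA motif GATAA, 233 bases before the start on the other strand and present in 22.6% of promoters, and the ETS motif AGGAAG, 41 bases before the start on the other strand and present in 29.5%. In Bcl2l14, the promoter shown held GATAA 163 bases before the start, and the other start, with its upstream bases at chr6:134396079-134396328, held none of the 8 motifs. In Tmem246, the promoter shown held TATAAA 103 bases before the start, found in 12.4% of promoters, and the GC box GGGCGG on the other strand, found in 32.7%. The other Tmem246 start, at chr4:49597471-49597720, held GGGCGG 2 times and had a GC content of 73.2%, against a median of 52.4% over all promoters. None of the 5 held the PPAR element DR1, a direct repeat of that core motif spaced by 1 base (0.0335% of promoters), the FOX motif TGTTTAC (3.17%) or the Grainyhead motif AACCGGTT (0.116%). These matches are a description of letters and not of bound sites.

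Values are normalized counts, which were scaled separately in each table, so levels are compared within a table, and libraries are given in the column order of that table. Summed over all genes they came to between 36520193 and 41435665 in a sorted-cell library, 41697178 and 53252995 in the tumor table, and 42985095 and 53904714 in the table of the 2 domains, while depth in reads is not known. As a check of the labels, Pparg had 13.0 to 125.6 normalized counts in the basal tumors and 3579 to 8632 in the luminal tumors and domains of the tumor table. In sorted cells Pparg had 9381 to 9999 in controls and 6111 to 9032 in mutants (log2 fold change -0.36 ± 0.12 SE, adjusted p = 0.126), and the fusion has no row of its own. Fabp4, a fatty acid binding protein gene and known Pparg target, had 207 to 467 in the 4 controls and 4969 to 30598 in the 5 mutants. In the tumor table Fabp4 did not separate the groups. It had 1082, 75.5 and 48304 in the basal tumors and 5991 to 316213 in the luminal tumors and domains. Superficial cell markers were detected in every sorted-cell library, with a summed level of 201277 to 381194 in controls and 252099 to 493810 in mutants. Basal markers summed to 141693 to 177228 in controls and 97763 to 137499 in mutants. Of 5 basal markers, 4 had an unadjusted p under 0.05 (20.8% of all genes did), and limma called 1 higher and 1 lower. These were Cd44 (adjusted p = 0.0116, limma), kept with each library left out, and Col17a1 (adjusted p = 0.0315, limma), kept in 4 of 9 such fits. The part of this shift in the levels of the 4 genes was not tested.

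Within the tumor table, Vsig2 was lowest in basal tumors and highest in the luminal domains. It had 11.7, 11.2 and 21.7 normalized counts in the 3 basal tumors. The values were 2803, 9315 and 2069 in the 3 luminal tumors and 23484 and 44410 in the 2 luminal domains of that table. Every luminal library was thus above every basal tumor, and both luminal domains were above all 3 luminal tumors. The luminal domain missing from that table had a far lower value, 2536, in another table that was normalized apart. The order of domains over tumors is therefore given for these 2 domains only. Group means were 14.9 ± 5.92 (SD, n = 3) in basal tumors, 4729 ± 3989 (SD, n = 3) in luminal tumors and 33947 ± 14797 (SD, n = 2) in luminal domains. On the log2(normalized count + 1) scale, luminal libraries together exceeded basal tumors by 9.19 ± 0.94 (SE), and luminal tumors alone did so by 7.96 ± 0.89 (SE).

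Tmem246, the GPI anchor enzyme, had 13.3, 1.45 and 0.719 normalized counts in the basal tumors. The luminal tumors had 1631, 3745 and 1071, and the 2 luminal domains had 3414 and 3398. The luminal domains lay inside the range of the luminal tumors, and basal tumors and luminal libraries did not overlap. The difference of luminal libraries from basal tumors was 9.24 ± 0.88 (SE) on the log2 scale.

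Bcl2l14, the Bcl2 family gene, had 1.88, 40.1 and 5.20 normalized counts in the basal tumors. It had 9619, 12612 and 2312 in the luminal tumors and 6787 and 2414 in the luminal domains. Here too the domains fell within the range of the luminal tumors, and the lowest luminal library was far above the highest basal tumor. The log2 difference of all luminal libraries from basal tumors was 9.23 ± 0.91 (SE), close in size to that of Vsig2 and Tmem246.

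Pate14 had another pattern. It was listed at 0 in 2 of the 3 basal tumors, with 1.01 normalized counts in the other, and at 0 in the first and the third luminal tumor, with 77.0 in the second. The 2 luminal domains had 1603 and 169. Luminal tumors and basal tumors overlapped, while both luminal domains and the second luminal tumor were above every basal tumor. The log2 difference of luminal libraries together was 4.53 ± 2.34 (SE), which put Pate14 at rank 205 of the 15357 genes tested by size of rise, whereas Tmem246, Bcl2l14 and Vsig2 were at ranks 4, 5 and 6. Pate14 reached 10 normalized counts in 3 libraries, the fewest the filter allows, so it was not among the genes tested without the second luminal tumor or either luminal domain, or with luminal tumors alone. With no filter, a setting chosen after seeing the data, its difference ran from 3.09 without the first luminal domain to 4.18 without the second luminal tumor, and was 1.76 with luminal tumors alone.

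**Figure D1:**
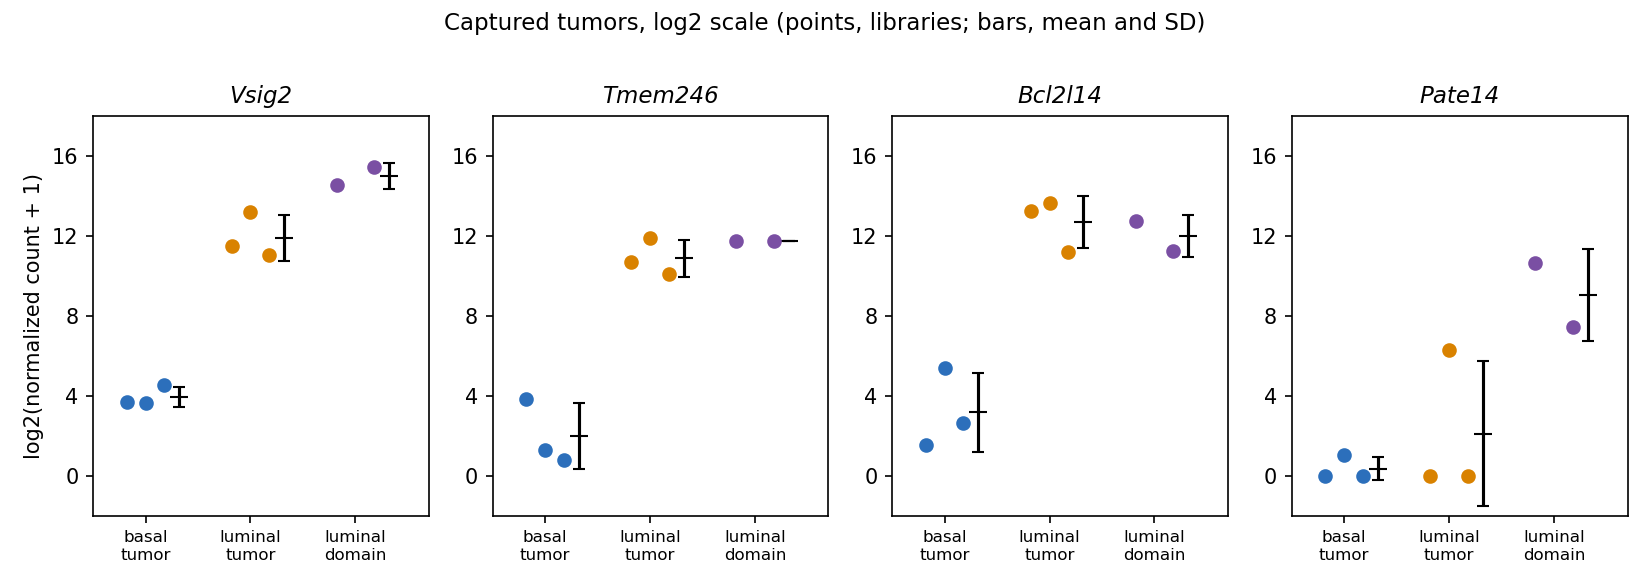
Level of each gene in the tumor table, on a log2(normalized count + 1) axis, with 1 point per library and the mean and SD beside each group (3 basal tumors, 3 luminal tumors, 2 luminal domains). Vsig2, Tmem246 and Bcl2l14 separate all luminal libraries from the basal tumors, while Pate14 lies at 0 in 2 of the 3 luminal tumors.

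These differences chose the genes, so no test is given for them. Among genes called by limma (adjusted p below 0.05) without overlap, with luminal libraries averaging 100 normalized counts or more, Upk3b, Snx31 and Upk3a, which belong to the uroplakin list, stood just above Tmem246 with log2 rises of 9.63, 9.61 and 9.46, and S100a5 and Upk1a just below Vsig2 with 8.67 and 8.64. Of all genes tested, 3.34% were called in this comparison and 7.15% were higher in all luminal libraries without overlap. The call counts of 3 of the 4 genes rest on this choice and nothing is read from them.

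Within the luminal tumors, the second library had the highest value of all 4 genes, and the third had the lowest of Vsig2, Tmem246 and Bcl2l14. The same second library had the most Upk2, at 60114 normalized counts against 31624 and 3492, and the least Krt5, at 4731 against 43414 and 91588. Upk3a was highest there too, at 218623, but the third library was above the first, 23168 against 20129. The second library's summed level of 6 fibroblast markers was 212, against 805 in the first and 17130 in the third. With 3 libraries this order was not tested. Of the luminal domains in the same table, the second had more Vsig2 than the first, 44410 against 23484, but less Upk2, 4359 against 39806.

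Markers of other cells also differed between the captured groups. Fibroblast markers summed to 44454 to 66575 in basal tumors, 212 to 17130 in luminal tumors and 5086 to 29242 in luminal domains; 6 of 6 had negative log2 differences and 0 of 6 were called by limma (5 of 6 at an unadjusted p under 0.05, as for 20.1% of all genes). Smooth muscle markers summed to 6010 to 51207 in basal tumors and 150 to 1777 in luminal libraries, where 1 to 4 of the 6 were at 0, and Tagln, Cnn1 and Actg2, all contractile genes, were called lower. Without the first basal tumor all 3 calls were lost; Cnn1 kept its call with any other library left out, Tagln did so except without the third basal or the second luminal tumor, and Actg2 only without the second basal tumor, the third luminal tumor or the second luminal domain. Leukocyte markers summed to 25138 to 131769 in basal tumors and 752 to 8686 in luminal libraries, with 0 of 5 called (2 of 5 at an unadjusted p under 0.05). Basal cell markers summed to 294354 to 660773 in basal tumors and 14061 to 251368 in luminal libraries, with 0 of 5 called (4 of 5 unadjusted). The part of these cells in the levels of the 4 genes was not tested. In such captured samples, fewer cells of a type and less RNA per cell cannot be told apart.

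A second table set the basal tumors against 3 luminal domains, among them 1 that is not in the tumor table. There Vsig2 had 24754, 47419 and 2536 normalized counts in the luminal domains, and 11.4 to 22.3 in basal tumors. The third domain, the one added, was far lower than the others. Tmem246 had 3985, 4017 and 2880 in the domains against 0.818 to 15.3, and Bcl2l14 had 7297, 2630 and 2371 against 1.99 to 41.6. Pate14 had 1762, 188 and 1837 in the domains, and was at 0 in 2 basal tumors with 1.07 in the other.

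For all 4 genes the luminal domains were above the basal tumors, with log2 differences of 9.85 ± 1.05 (SE) for Vsig2, 9.71 ± 1.06 for Tmem246, 8.57 ± 1.13 for Bcl2l14 and 9.38 ± 1.29 for Pate14. Vsig2, Tmem246, Pate14 and Bcl2l14 were at ranks 1, 2, 4 and 9 of 14921 genes by size of rise. There, 2.53% of genes were called and 14% were higher without overlap. The basal tumors and 2 of the 3 domains are the libraries of the tumor table, so these values are no independent support. The count behind that share, 377 genes, fell to 0 without the first or without the second luminal domain, to 3 without the third and to 22 without the first basal tumor.

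Sorted cells 4 days after tamoxifen gave a comparison that played no part in the choice. Vsig2 was abundant in both genotypes, with 23873, 25213, 19744 and 19673 normalized counts in the 4 controls. The 5 mutants had 21270, 26739, 23379, 23424 and 30451. The groups overlapped, with means of 22126 ± 2845 (SD, n = 4) and 25053 ± 3597 (SD, n = 5). The log2 fold change was 0.18 ± 0.13 (SE), with a 95% interval of -0.12 to 0.47 and an adjusted p of 0.488 by limma. The estimate was 0.10 without the fifth mutant and 0.09 with quantile scaling.

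Tmem246 had 4675, 5185, 5433 and 4073 normalized counts in the controls and 3752, 4074, 4118, 3350 and 4932 in the mutants. It was the only one of the 4 whose estimate lay below 0, at -0.26 ± 0.13 (SE), with a 95% interval of -0.54 to 0.02 and an adjusted p of 0.274 by limma. The groups overlapped.

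Bcl2l14 had 2365, 1854, 1672 and 1872 normalized counts in the controls and 5974, 3588, 2772, 1899 and 3051 in the mutants. Of the 5 mutants 4 were above all controls, and the remaining mutant, at 1899, was inside the control range. Means were 1941 ± 297 (SD, n = 4) and 3457 ± 1534 (SD, n = 5), and the mutant values spread 3.15-fold from lowest to highest against 1.41-fold in the controls. The log2 fold change was 0.74 ± 0.27 (SE), with a 95% interval of 0.13 to 1.35 before adjustment. The unadjusted p was 0.0224 and the adjusted p was 0.166 by limma, so Bcl2l14 did not pass the test over all genes. The authors' separate table of 3 controls and 3 mutants leaves out the first control and the first and the fourth mutant, among them the mutant inside the control range. In that table the groups did not overlap, and 11.3% of the 16085 genes tested there were higher in mutants without overlap. The log2 fold change was 0.80 ± 0.13 (SE), with an adjusted p of 0.0514 by limma. Over all alternatives and all single libraries left out, the adjusted p ran from 0.0514 to 0.337.

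Pate14 had few normalized counts in sorted cells, 27.4, 21.9, 22.8 and 9.37 in the controls. The mutants had 36.1, 34.9, 20.4, 12.6 and 31.6, overlapping the controls. The log2 fold change was 0.39 ± 0.43 (SE), with a 95% interval of -0.56 to 1.35 and an adjusted p of 0.64 by limma. It was 0.08 without the fourth control and 0.63 without the fourth mutant, the lowest and highest values with 1 library left out. The interval holds a change of over 2-fold upward, so the data do not bound Pate14 closely. In the table of 3 against 3 the log2 fold change of Pate14 was 0.71 (adjusted p = 0.544, limma), that of Vsig2 was 0.32 (adjusted p = 0.39, limma) and that of Tmem246 was -0.15 (adjusted p = 0.683, limma).

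**Figure D2:**
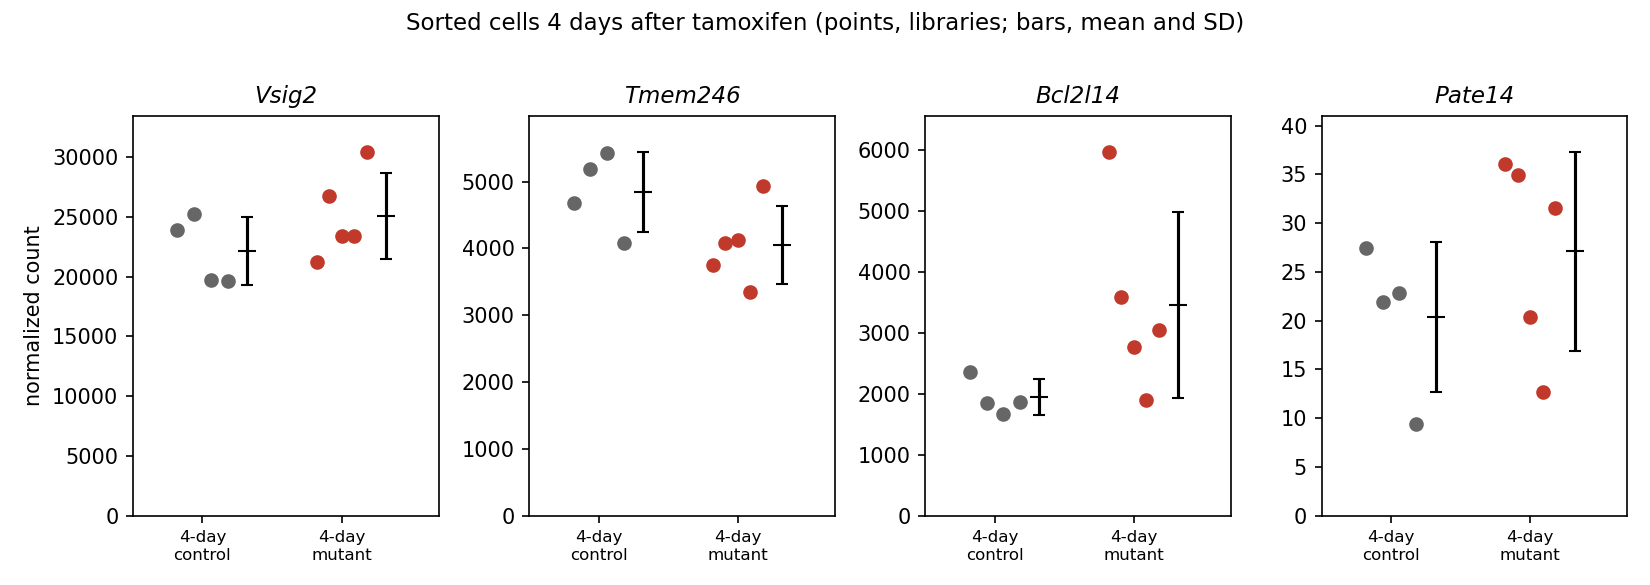
Normalized counts of each gene in cells sorted 4 days after tamoxifen, on linear axes that start at 0, with 1 point per library and the mean and SD beside the 4 controls and the 5 mutants. Groups overlap in all 4 panels; 4 of the 5 Bcl2l14 mutant points lie above the controls.

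In this comparison 0 of the 4 genes were called by limma, and 1 of 4 (Bcl2l14) had an unadjusted p under 0.05, which 3418 of the 16413 genes tested had (20.8%). Of all genes, 2.85% were called and 1.77% were called higher. Summed levels of the Y-linked genes Ddx3y, Uty, Kdm5d and Eif2s3y were 404, 9030, 9177 and 9046 in the controls and 338 to 395 in the mutants, so 3 of the 4 controls stood apart from all other libraries. The first control, low in these genes, had the highest Bcl2l14 of the controls, 2365, below 4 of the 5 mutants. In the smaller table, which leaves it out, all 3 controls were high in these genes and all 3 mutants low. Fibroblast markers summed to 11651 to 84707 in controls and 30652 to 217371 in mutants, and 1 of the 6, Lum, an extracellular matrix proteoglycan, was called higher, a call kept only without the fourth control, the second mutant or the fifth mutant. All 6 had log2 fold changes above 0, with a median of 2.02 and 5 of 6 at an unadjusted p under 0.05. Smooth muscle markers summed to 174 to 1042 in controls and 410 to 2719 in mutants, and 6 of 6 were above 0 with a median of 1.75, where 0 were called by limma and 4 had an unadjusted p under 0.05. The mutant with the highest Bcl2l14 had a fibroblast sum of 84293, and the mutant with the highest fibroblast sum, 217371, had a Bcl2l14 value of 2772. The mutant with the highest Bcl2l14 also had the highest Fabp4, 30598 against 4969 to 7617 in the other mutants. Its Krt14 was the highest too, 11162 against 616 to 3883, and its Upk3a the lowest, 42624 against 67935 to 100431. Fabp4 and Bcl2l14 did not keep the same order in the other mutants. The mutant with the lowest Bcl2l14, 1899, had 5904 of Fabp4, above the 4969 of the mutant with 2772. The part of sex and of fibroblast and smooth muscle RNA in these results was not tested.

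The 2 domains of luminal tumors were compared in a table of their own. Vsig2 had 26175, 50785 and 2713 normalized counts in the luminal domains and 4252, 11297 and 191 in the basal-like domains. The libraries of each domain differed widely, 18.7-fold in the luminal and 59.1-fold in the basal-like domain, and the groups overlapped. The log2 difference of basal-like from luminal domain was -2.87 ± 1.56 (SE), the largest of the 4 genes.

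Tmem246 had 3476, 3549 and 2542 normalized counts in the luminal domains and 744, 2209 and 1721 in the basal-like domains. It was the only one of the 4 whose domains did not overlap, and the basal-like domain was lower by -1.16 ± 0.42 (SE) on the log2 scale. A lower value without overlap was found for 5.14% of the 14874 genes tested. Its luminal domain values were also the most even of the 4 genes, 1.40-fold from lowest to highest.

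Bcl2l14 had 7316, 2671 and 2406 normalized counts in the luminal domains and 3504, 1414 and 1244 in the basal-like domains, a log2 difference of -0.98 ± 0.54 (SE). Pate14 had 1839, 198 and 1939 in the luminal domains and 548, 33.4 and 830 in the basal-like domains, a log2 difference of -1.83 ± 1.34 (SE). Groups overlapped for both. In each domain the middle library in column order was the highest for Vsig2 and the lowest for Pate14, and the first was the highest for Bcl2l14. For Vsig2, Tmem246, Bcl2l14 and Pate14 alike, each basal-like library was below the luminal library in the same place of the column order. No label says that such libraries share a lesion, and this order was not tested. Pparg, Upk2 and Upk3a kept the same order, while Fabp4 did not, so the order is not particular to the genes chosen. Its share among all genes is not given, and luminal domains took part in the choice, so nothing is read from this order. Vsig2, Tmem246 and Bcl2l14 each had 191 or more normalized counts in the basal-like domains and 41.6 or less in the basal tumors of the other tables, which were normalized apart. Low values in basal tumors were part of the choice of these genes, so nothing is read from this.

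**Figure D3:**
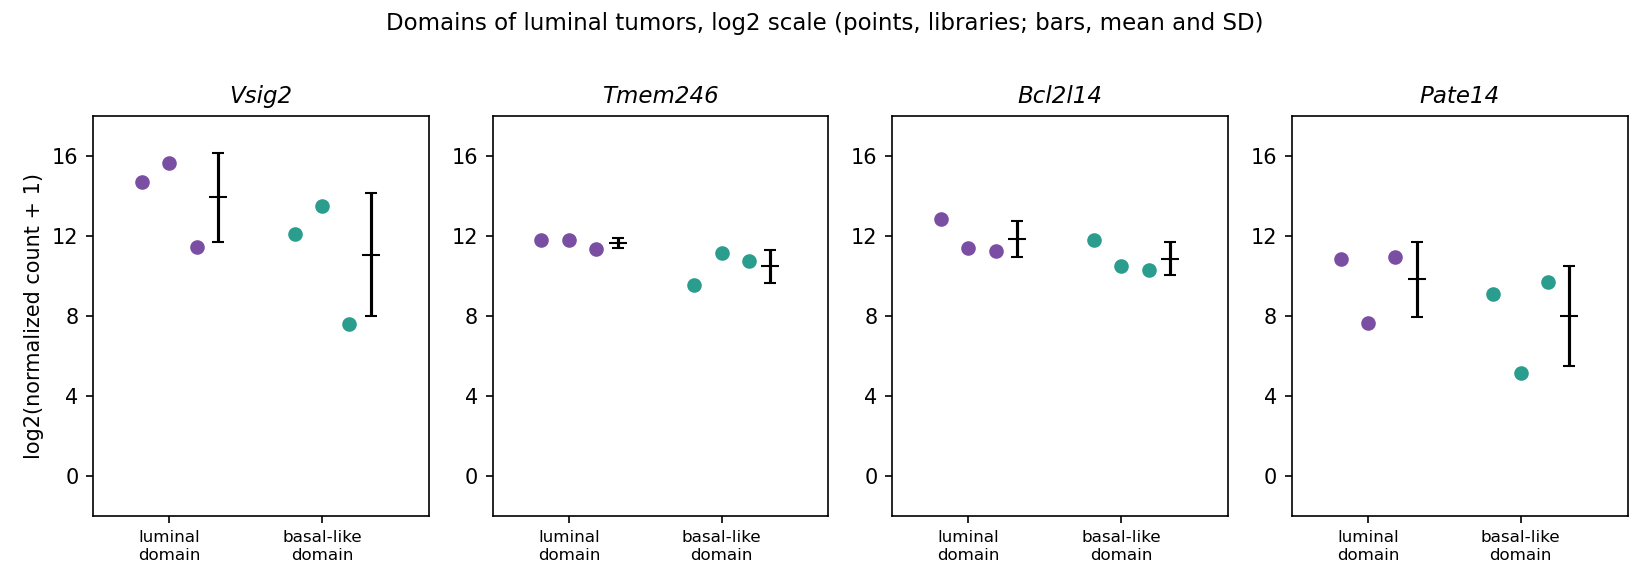
Level of each gene in the 3 luminal and 3 basal-like domains, on a log2(normalized count + 1) axis, with 1 point per library and the mean and SD beside each group. All 4 means are lower in the basal-like domain, and only Tmem246 shows no overlap.

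Leaving out 1 library moved these differences by over 1.5 times. Vsig2 ran from -4.12 without the third luminal domain to -1.15 without the third basal-like domain, and Pate14 from -2.91 without the second luminal domain to -0.40 without the second basal-like domain. Bcl2l14 was at -0.47 without the first luminal domain, and Tmem246 at -0.69 without the first basal-like domain. The fit and the overlap treat the domains as unpaired, so any lesion they share is not taken into account. At least 2 of the 3 luminal domains took part in the choice of the genes, so no test is given here. Over all genes, limma called 0 of 14874 (0%) between the domains, with 757 at an unadjusted p under 0.05, and 20 when the variance trend was left out. Fibroblast markers summed to 5225 to 32313 in luminal and 13859 to 104068 in basal-like domains, and basal markers to 177096 to 283081 and 253955 to 458246, while superficial markers summed to 117902 to 504510 and 34041 to 123325. Smooth muscle markers summed to 1440 to 1921 in luminal and 1929 to 7195 in basal-like domains. Of these, 4 of 4 tested had log2 differences above 0, with a median of 1.29, and 0 were called by limma. The part of these mixtures in the lower values was not tested.

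**Figure D4:**
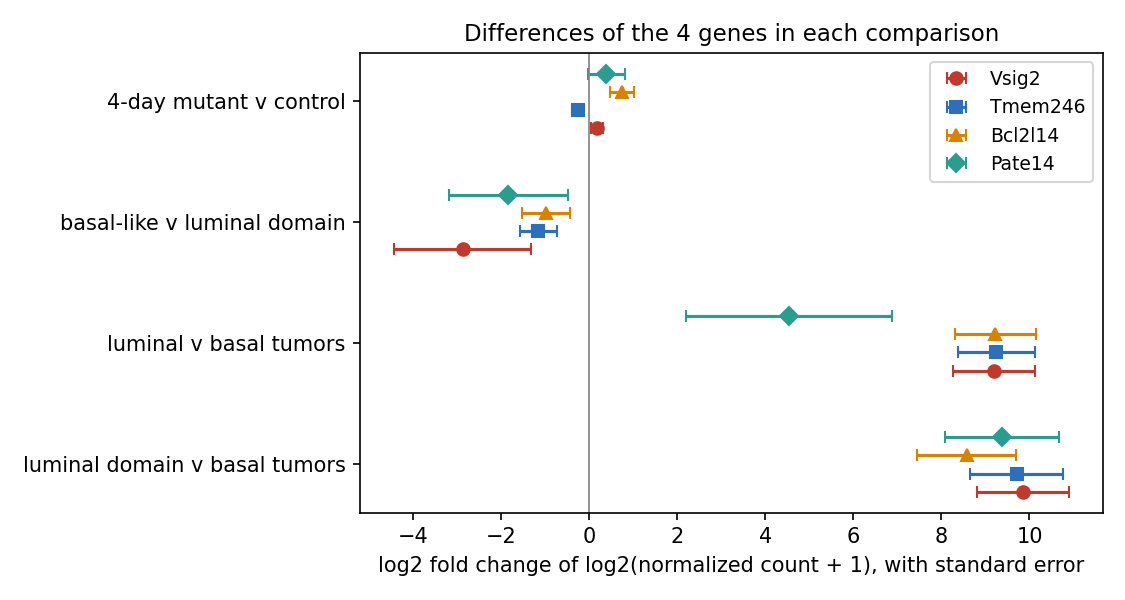
Log2 fold changes of the 4 genes (points) with standard errors (bars) in the 4 comparisons, from limma on log2(normalized count + 1). The sorted-cell differences lie between -0.26 and 0.74, and those against basal tumors between 4.53 and 9.85.

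Relatives of the 4 genes were examined by list. Counts at an unadjusted p under 0.05 stand beside a share of all genes of 20.1% in the tumor table, 20.6% in luminal domains against basal tumors, 20.8% in sorted cells and 5.09% between the domains. Of 19 immunoglobulin-superfamily relatives of Vsig2, 16 were tested between luminal and basal tumors, and 7 of 16 had an unadjusted p under 0.05. Their median log2 difference was 0.70 against -0.10 over all genes, and 2 were called higher. They were Igsf5, a junctional adhesion protein, at 5.72 ± 1.36 (SE, adjusted p = 0.049), and Gpa33, an epithelial surface antigen, at 5.67 ± 1.33 (SE, adjusted p = 0.0477). Each held its call in 2 of 8 fits with 1 library left out, Igsf5 without the first or the second basal tumor and Gpa33 without the second basal tumor or the third luminal tumor. In sorted cells 0 of 17 were called (1 of 17 unadjusted), and between luminal domains and basal tumors 0 of 16 (4 of 16 unadjusted). F11r, a tight junction protein with the highest mean normalized count of the list in sorted cells, not taken per length, had a log2 fold change of -0.16 (adjusted p = 0.438).

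Of the 28 GPI anchor genes tested with Tmem246, 1 was called higher in the tumor table, Pigh, a subunit of the enzyme for the first step of anchor synthesis, at 2.07 ± 0.49 (SE, adjusted p = 0.0473), a call kept only without the third luminal tumor or the second luminal domain. The list's median was 0.46 there, with 5 of 28 at an unadjusted p under 0.05. Elsewhere 0 of 28 were called by limma in each of the other comparisons, with 3 in sorted cells, 6 in luminal domains against basal tumors and 2 between domains at an unadjusted p under 0.05. Pgap2, with the highest mean normalized count of the list in the basal-like domains, had a log2 difference of -0.24 between domains (adjusted p = 0.961).

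Of the Bcl2 family, 17 relatives of Bcl2l14 were tested in each comparison. The cell death inhibitor Bcl2l1 was called higher in the tumor table, at 1.88 ± 0.41 (SE, adjusted p = 0.036), 1 of 4 inhibitors tested, and 0 of 10 promoters were called there (3 of 10 unadjusted). In sorted cells the inhibitor Bcl2 fell by 0.99 on the log2 scale (adjusted p = 0.0422, limma) and the promoter Bok rose by 2.07 (adjusted p = 0.0211, limma), while Bcl2l14 was not called. Between luminal domains and basal tumors the promoter Pmaip1 rose by 1.54 (adjusted p = 0.0476, limma). The family's medians were 0.10 in the tumor table, 0.07 in sorted cells and 0.46 in luminal domains against basal tumors. With 1 library left out, Bcl2l1 stayed called only without the second or the third luminal tumor and Bcl2 only without the fourth mutant. Bok lost its call only without the second control (adjusted p = 0.0713, limma), and Pmaip1 lost it without any one of the 6 libraries.

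Of 55 Ly6 and Pate relatives of Pate14, 35 were tested in the tumor table (9 of 35 unadjusted) and 2 were called higher. These were Psca, a GPI-anchored surface antigen, at 4.04 ± 0.80 (SE, adjusted p = 0.0256), and Ly6d, another GPI-anchored surface protein, at 2.32 ± 0.50 (SE, adjusted p = 0.036). Each kept its call in 3 of 8 fits with 1 library left out, both without the third luminal tumor or the second luminal domain, Psca also without the third basal tumor and Ly6d also without the second. In sorted cells 0 of 28 were called (9 of 28 unadjusted), and between luminal domains and basal tumors 0 of 31 (9 of 31 unadjusted). Of the 13 other Pate genes, 7 were at 0 in every library of the tumor table and the highest normalized count of any was 83.3, in Pate2, against 1603 for Pate14, neither taken per length. Reads from near-identical Pate copies could be divided among them by the authors' estimation, so the split within this family is uncertain.

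A list of 5 uroplakin genes, Snx31 and the superficial cell keratin Krt20, and a list of luminal transcription factors, give the setting. Of the 7 genes of the first list 6 were called higher in the tumor table, where Upk2, Upk3a, Upk3b and Snx31 kept their calls with each library left out, Upk1a in 5 of 8 such fits (not without the first or the second basal or the first luminal tumor) and Upk1b in 4 of 8 (not without the third basal tumor, the first or the second luminal tumor or the first luminal domain). In luminal domains against basal tumors 3 were called, and 0 of these 3 stayed called by limma without the first basal tumor or any one of the domains. In sorted cells 7 of 7 had log2 fold changes above 0, with a median of 0.61 and 3 of 7 at an unadjusted p under 0.05; no uroplakin gene was called, and the only call was Krt20, which rose by 1.83 (adjusted p = 0.0444, limma) and stayed called only without the fourth mutant. Upk3b, with a tumor rise of 9.63, had a log2 fold change of 0.61 ± 0.16 (SE) in sorted cells (adjusted p = 0.0753). Of 8 luminal transcription factors 4 were called higher in the tumor table, with Pparg at 6.59 ± 0.68 (SE), Grhl3 at 2.84 ± 0.65 and Elf3 at 2.42 ± 0.35 the largest (Pparg and Elf3 kept their calls with each library left out, Grhl3 only without the third basal tumor). The other was Foxa1, at 1.64 ± 0.37 (SE, adjusted p = 0.0422, limma), a call kept only without the second basal or the third luminal tumor. Of these factors 0 of 8 were called in sorted cells (4 of 8 unadjusted), where 6 of 8 had log2 fold changes below 0 and the median was -0.31. Between domains 0 of the 7 genes of the uroplakin list were called (3 of 7 unadjusted), and all 7 had negative log2 differences with a median of -1.88.

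Chromosome neighbors of the 4 genes were not called in any comparison. Of 24 neighbors, the 3 nearest on each side, 15 were tested in the tumor table, where 0 were called (1 at an unadjusted p under 0.05) and the differences ran from -2.40 to 1.55. The 1 gene was Borcs5, 200773 bases from Bcl2l14, at 1.30 ± 0.42 (SE, unadjusted p = 0.0106, adjusted p = 0.124, limma); it had 1.64 ± 0.50 in luminal domains against basal tumors (unadjusted p = 0.0107, limma) and -0.46 ± 0.15 in sorted cells (unadjusted p = 0.0143, limma). Nrgn, 286 bases from Vsig2, had a difference of -2.40 ± 1.96 (SE), and Esam, 935 bases away on the other side, of -0.58 ± 1.59. In sorted cells Nrgn had 1.08 ± 0.35 (SE, unadjusted p = 0.0107, adjusted p = 0.116, limma). Esam had 1.27 ± 0.54 in luminal domains against basal tumors (SE, unadjusted p = 0.0451, adjusted p = 0.232, limma). Lrp6, 7739 bases from Bcl2l14, had -0.83 ± 0.50, and Rnf20, 34129 bases from Tmem246, had 0.45 ± 0.37. In sorted cells 0 of 15 were called (4 of 15 unadjusted), with Lrp6, a Wnt co-receptor, the lowest at an adjusted p of 0.0681 and a log2 fold change of -0.46 ± 0.12 (SE). Between luminal domains and basal tumors 0 of 15 were called (2 of 15 unadjusted), and between the domains 0 of 16 (1 of 16 unadjusted).

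Genes most like each of the 4 were sought among 11258 that averaged 100 normalized counts or more in luminal libraries, by the lower of 2 Pearson correlations, over the 8 libraries of the tumor table and the 6 of the domain table, which share 2 libraries. For Vsig2 they were Akr1b3, Krt8, Prkab1, Akr1b8 and Osgin1, with values from 0.973 to 0.945, where Akr1b3 and Akr1b8 are aldo-keto reductases and Krt8 is a keratin of luminal cells. For Tmem246 they were Plekhg6, Wbp2, Pacsin3, Pllp and Tprgl, from 0.947 to 0.913, Pllp being plasmolipin, a membrane protein of epithelia and myelin. For Bcl2l14 they were Ppfibp2, Fer1l4, Ppdpf, Tbx2 and Prom2, from 0.978 to 0.944, Tbx2 being a T-box transcription factor. For Pate14 they were Tmem229a, Acad11, Xab2, Cda and Rsph4a, from 0.967 to 0.859, Acad11 being an acyl-CoA dehydrogenase. The 4 sets share no gene. These values describe likeness only, since the tumor libraries fall into separate groups and the candidates were many.

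In the sorted cells, which did not enter that search, 2 of these 20 genes were called, where 2.85% of all genes were. Pllp rose by 1.32 (adjusted p = 0.00182, limma) and kept its call with each library left out. Ppfibp2 rose by 0.51 (adjusted p = 0.0214, limma) and lost its call without the second, the third or the fourth control or the third mutant, where adjusted p reached 0.0754. The 467 genes called fell to 129 without the third control. Prom2, a protein of membrane protrusions, had a log2 fold change of 0.52 with an adjusted p of 0.0593 by limma, and Krt8 had 0.84 with an adjusted p of 0.184.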

How the data were processed

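RNA was sequenced from sorted cells (4 controls, 5 mutants) and laser-captured tumors (4 groups of 3 libraries). The authors obtained transcript estimates from kallisto, which tximport combined by gene, and DESeq2 scaled every table separately. The signal values they deposited are the resulting normalized counts. The submitters' processing notes name bcl2fastq 2.20, kallisto 0.44.0, sleuth, DESeq2 1.18 and the builds GRCm38 and GRCh38, with no role for either. Because the normalization factors differ by gene, read depth is unknown, and intervals cannot be given from counts. Deposited lists of the authors' own comparisons (means, fold changes, p-values) were not used.

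Columns were assigned to groups from table names in the labels, without replicate numbers; 8 columns of untreated and BBN-treated wild-type urothelium could not be assigned and are not used here. Within each table, log2(normalized count + 1) was fitted with limma 3.58.1 (R 4.3.3; lmFit, eBayes with a trend) for genes reaching 10 normalized counts in a number of libraries no lower than the size of the smaller group. Benjamini-Hochberg adjusted p below 0.05 counted as a call. The procedure was tested on simulated data. Nothing in the labels says that libraries of a group came from separate animals, so p measures only the spread between libraries.

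The members and lists were chosen with earlier results of these data known. Tests of the 4 genes are given only for sorted cells. Named beside them are some of the 3 nearest protein-coding neighbors on each side and the 5 most alike genes. From 16 lists some of the called genes are named, not all, and otherwise genes among the most abundant. Genes chosen after their values were seen are Prom2 and Krt8 in the last comparison, Upk3b in sorted cells, Fabp4, S100a5 and the genes beside it in rank. So are Krt14 and Upk3a where given by library, and Pparg, Upk2 and Upk3a where their order between the domains is given. Alternatives were pseudocounts of 5 and 0.5, no filter, a filter at 50, no trend, upper-quartile and quantile scaling, the table of 3 against 3, luminal tumors alone and each library left out. Coordinates are from GENCODE vM21, sequences from RefSeq (GRCm38.p6). Python 3.11.15, pandas 2.3.3 and matplotlib 3.10.9 were used.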

Additional observations from a re-analysis of the deposited data

How the results depend on the processing

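Over 235 alternative values of the log2 differences of the 4 genes, 4 of them for Pate14 with no filter where it fell below it, 0 changed sign and 233 stayed within 1 SD or on the same side of the threshold. Many of these values are differences from basal tumors, which took part in the choice of the genes. Their unchanged sign was to be foreseen from that choice and is no support. The SD between domain libraries is wide, and with 1 library left out the domain differences ran from -4.12 to -1.15 for Vsig2, -1.48 to -0.69 for Tmem246, -1.44 to -0.47 for Bcl2l14 and -2.91 to -0.40 for Pate14. With a pseudocount of 5, Tmem246 in the tumor table moved from 9.24 to 8.08 and Pate14 in luminal domains against basal tumors from 9.38 to 7.33. In sorted cells the 4 genes stayed uncalled under every alternative run.

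Counts of called genes moved more. In sorted cells, 467 became 269 without the trend and 147 in the table of 3 against 3, and ranged from 129 to 596 with 1 library left out. In the tumor table, 513 became 337 without a filter, 215 without the trend and 142 with luminal tumors alone, and ranged from 171 to 878. In luminal domains against basal tumors, 377 became 144 without a filter and 107 without the trend, and ranged from 0 to 467; the counts of 0, without the first or the second luminal domain, came with 2503 and 2303 genes at an unadjusted p under 0.05 by limma. Between domains, 0 became 20 without the trend and stayed at 0 with each library left out. In sorted cells the counts fell to 154, 129 and 169 without the second, the third and the fourth control, to 311 without the first mutant and to 228 without the third; in the tumor table they were 171 without the first basal tumor, 263, 249 and 878 without the first, the second and the third luminal tumor and 287 without the first luminal domain; in luminal domains against basal tumors they were 22 and 160 without the first and the third basal tumor and 3 without the third domain. The cause was not tested.

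No paired analysis was possible because the columns carry no replicate numbers. Groups of 2 to 5 libraries limit every estimate, and at values near 0 the log2 scale understates a change.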
